A study of Mus musculus with 8 samples.

Results

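Transcript levels of 10 genes were examined in cardiac fibroblasts that had lost lamin A/C. The genes encode the transcription factor NRF2 (Nfe2l2), 7 of its antioxidant targets (Hmox1, Nqo1, Gclc, Gclm, Txnrd1, Srxn1 and Slc7a11) and the metallothioneins Mt1 and Mt2. They were chosen by name as textbook members of the electrophile and metal responses, with earlier results of these data known, and all 10 were among the 18957 genes listed in the count data. After removal of genes with low counts, 9 of them were among the 13036 genes tested, and Mt2 was not. There were 4 RNA-Seq libraries from wild type (WT) and 4 from Pdgfra-Cre:LmnaF/F mice, 3 to 4 weeks old, of the strain given as C57BL/6 (mixed). The sources used here do not say that each library came from a separate mouse, so p-values measure the spread between these samples. In the Pdgfra-Cre:LmnaF/F mice a Cre recombinase driven by the Pdgfra gene's regulatory sequence removed exon 2 of floxed Lmna, the gene for lamins A and C of the nuclear lamina. WT littermates carried neither altered allele, so Cre expression and loss of Lmna cannot be told apart in this comparison, and Pdgfra-Cre also recombines in a subset of cardiac myocytes. The labels name no treatment for either group. Per the study's methods, pentobarbital and heparin were injected before hearts were taken. Ventricular cells released by collagenase were gated as living, lineage-negative and PDGFRA-positive, and their total RNA was made into strand-specific, ribosomal RNA-depleted libraries.

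NRF2 is held at a low level in unstressed cells by KEAP1, which delivers it to the proteasome. Electrophiles and oxidants free it to enter the nucleus, where, with a small MAF partner, it binds antioxidant response elements and drives genes for glutathione synthesis, thioredoxin recycling, quinone reduction and heme breakdown. Metallothioneins are small cysteine-rich proteins that bind zinc and copper. Their genes respond chiefly to the zinc sensor MTF1 through metal response elements, and also to glucocorticoids, cytokines and cell stress. Activity of NRF2 is set largely at the protein level, which RNA-Seq does not measure.

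Promoters are shown here for 4 of the genes because they hold matches to the regulatory elements named above. RefSeq promoter windows (build GRCm38.p6, 250 bases before to 50 bases after the annotated start) were at hand for 8 of the 10 genes, in 10 windows, of which 3 belonged to Txnrd1. Gclc and Hmox1 had none. The 250 bases before the start of each metallothionein gene are printed with matches to the metal response element core (TGCACNC or TGCGCNC, either strand) in capitals.
Mt1, chr8:94178839-94179088, plus strand: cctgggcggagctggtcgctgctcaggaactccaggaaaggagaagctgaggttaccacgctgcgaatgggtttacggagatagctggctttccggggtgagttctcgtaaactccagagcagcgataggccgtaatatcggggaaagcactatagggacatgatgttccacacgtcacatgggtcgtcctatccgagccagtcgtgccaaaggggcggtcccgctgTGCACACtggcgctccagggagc
Mt2, chr8:94172368-94172617, plus strand: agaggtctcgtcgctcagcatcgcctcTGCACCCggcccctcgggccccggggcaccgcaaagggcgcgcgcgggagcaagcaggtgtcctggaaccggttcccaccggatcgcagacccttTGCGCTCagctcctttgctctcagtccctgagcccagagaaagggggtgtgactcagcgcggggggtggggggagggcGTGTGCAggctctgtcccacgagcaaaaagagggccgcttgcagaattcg
The corresponding stretch of Nfe2l2 and of Gclm, the regulatory subunit of the enzyme that starts glutathione synthesis, is printed with matches to the antioxidant response element core (TGACNNNGC, either strand) in capitals.
Nfe2l2, chr2:75704664-75704913, minus strand: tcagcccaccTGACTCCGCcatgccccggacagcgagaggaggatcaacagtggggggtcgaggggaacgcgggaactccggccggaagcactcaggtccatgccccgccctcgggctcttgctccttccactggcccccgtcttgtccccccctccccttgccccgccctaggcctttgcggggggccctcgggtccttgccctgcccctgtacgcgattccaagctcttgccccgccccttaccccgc
Gclm, chr3:122245307-122245556, plus strand: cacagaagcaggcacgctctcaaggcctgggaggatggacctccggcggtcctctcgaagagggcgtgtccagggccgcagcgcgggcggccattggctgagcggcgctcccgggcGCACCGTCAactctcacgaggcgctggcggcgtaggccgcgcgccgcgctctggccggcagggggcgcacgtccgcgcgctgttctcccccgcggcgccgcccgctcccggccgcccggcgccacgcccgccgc
In the whole 300-base windows, the metal response element core occurred 4 times at Mt2, 3 times at Mt1, 3 times at Gclm and once at Srxn1. At least 1 match was present in 25.7% of the 32851 promoters in the same table. The antioxidant core was found at Nfe2l2, Srxn1, Gclm, Mt2 and 1 of the Txnrd1 windows, against 12.4% of all promoters. Neither core lay in the windows of Nqo1 or Slc7a11, and the antioxidant core was not in the Mt1 window. These matches describe letters in a short window and not bound sites. Of the 3 metal matches at Mt1, 1 lay before the annotated start and the others after it. Sequence outside the windows was not searched, so a match missing from a window does not show that the gene's promoter lacks the element. At Mt2 the antioxidant and metal matches did not overlap, whereas at Gclm the antioxidant match shared bases with 1 of the metal matches.

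Deposited counts summed to between 2080555 and 12502949 per library, and 1 WT library (replicate 2) had the lowest total. Levels are given as CPM, the counts of a gene scaled to a common library total after TMM normalization. Lmna fell from 365 ± 88.4 to 111 ± 20.0 CPM (mean ± SD, n = 4 libraries each), with no overlap between the genotypes and a log2 fold change of -1.72 (SE 0.22; edgeR adjusted p = 0.00492). Fibroblast identity was checked with 8 markers, whose summed CPM ranged from 82800 to 96800 in WT and from 80900 to 93500 in Pdgfra-Cre:LmnaF/F. Pdgfra-Cre:LmnaF/F replicate 4 stood apart in markers of other cells. Its 8 cardiomyocyte markers summed to 3170 CPM (192 to 617 in the other 7 libraries) and its 7 macrophage or leukocyte markers to 450 CPM (45.2 to 187 elsewhere), and none of these 15 markers was at 0 in every library or passed the test. Endothelial, pericyte, Schwann and mesothelial markers stayed within or below the WT range apart from an endothelial sum of 395 against a WT maximum of 377, and a Schwann sum of 7.71 against 7.01. Erythroid markers reached 666 CPM in Pdgfra-Cre:LmnaF/F replicate 1, and were at 16.8 to 45.0 CPM in the other 3 libraries of that genotype, against 31.6 to 365 CPM in WT. The untested difference in mean log2 sums was -1.44 for erythroid and -1.19 for mesothelial markers, both lower in Pdgfra-Cre:LmnaF/F. With 1 library left out it ranged from -2.57 to -0.83 for erythroid and from -1.6 to -0.88 for mesothelial markers. Y-linked transcripts exceeded 100 CPM in 3 WT libraries (replicates 1, 2 and 4) and 1 Pdgfra-Cre:LmnaF/F library (replicate 4), and were at most 1.96 CPM in the remaining 4, so this split was unequal between the genotypes.

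None of the 9 tested genes passed the threshold of an adjusted p under 0.05 in edgeR's quasi-likelihood test, while 53 of the 13036 genes, or 0.407%, did. By DESeq2 the count was also 0 of 9 (2.32% of all genes). Only Mt1 had an unadjusted edgeR p under 0.05, a level reached by 11.9% of all tested genes. The estimates lay above 0 for 5 genes (Mt1, Nqo1, Gclc, Gclm and Txnrd1) and below 0 for 4 (Hmox1, Srxn1, Nfe2l2 and Slc7a11), compared with 51.8% above 0 over all genes. Their median log2 fold change was 0.23, beside 0.03 for all genes tested, for which the 5th and 95th percentiles were -1.02 and 1.18. In no gene of the set were all Pdgfra-Cre:LmnaF/F libraries on 1 side of all WT libraries, a separation seen for 8.03% of all tested genes. Where expression in these sorted populations differs, fewer cells of a type and less RNA per cell cannot be told apart.

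**Figure D1:**
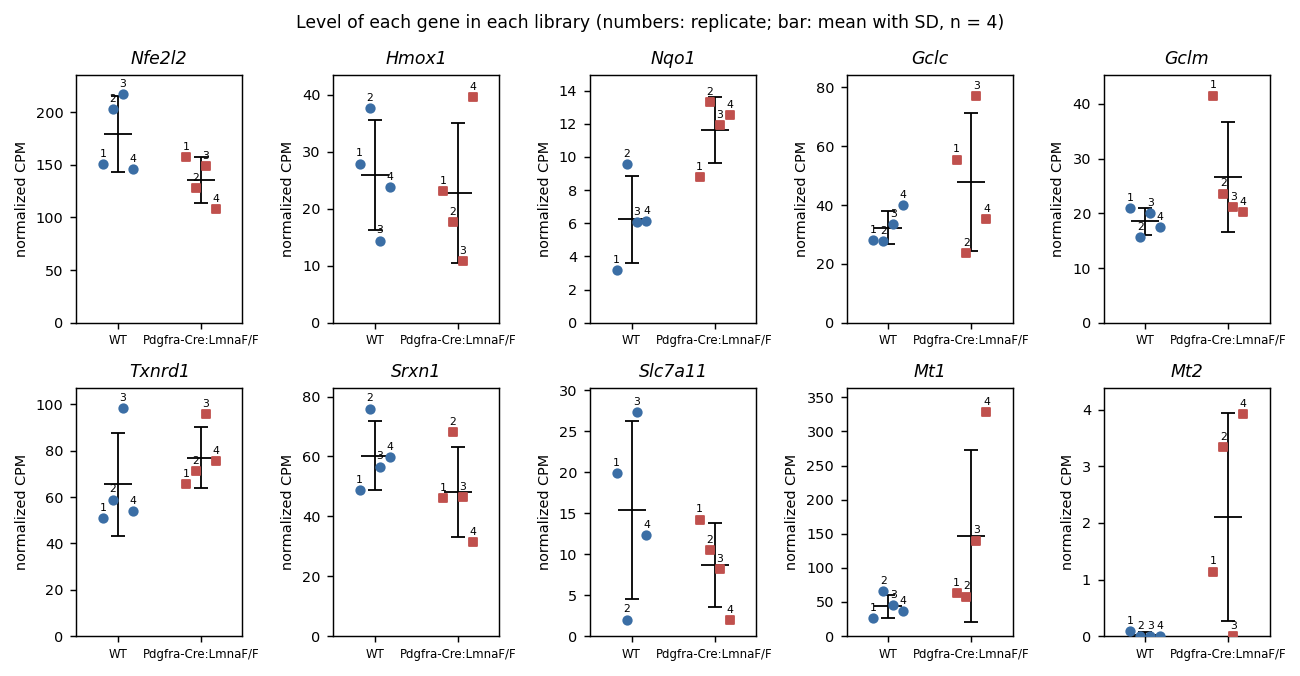
Normalized CPM (linear axis from 0) of each of the 10 genes in the 4 WT (blue circles) and 4 Pdgfra-Cre:LmnaF/F libraries (red squares), with the replicate number beside each point and the mean ± SD as bars. The genotypes overlap in every panel, and replicate 4 of Pdgfra-Cre:LmnaF/F is highest for Mt1 at 328 CPM.

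**Figure D2:**
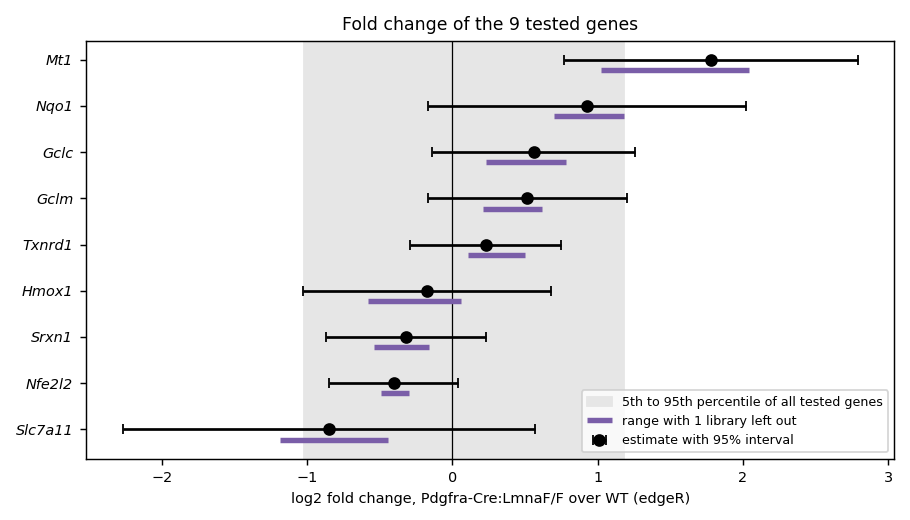
Log2 fold change of the 9 tested genes (Pdgfra-Cre:LmnaF/F over WT, edgeR) with 95% intervals, the range of estimates with each library left out in turn (purple), and the 5th to 95th percentile of all tested genes (grey). Only the interval of Mt1, from 0.77 to 2.79, does not include 0.

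Nfe2l2, which encodes NRF2 itself (chr2:75675513-75704641, minus strand, mm10), was measured at 151, 203, 217 and 146 CPM in WT replicates 1 to 4. The Pdgfra-Cre:LmnaF/F libraries held 157, 128, 149 and 108 CPM. The distributions overlapped, with 2 of the Pdgfra-Cre:LmnaF/F libraries below every WT library. Its log2 fold change was -0.40 (SE 0.21, 95% interval -0.85 to 0.04, edgeR adjusted p = 0.477). This was the narrowest interval among the 9 genes, and it stops short of a change as large as 2-fold in either direction. Its leave-one-out estimates, each without 1 library, lay between -0.49 and -0.30. It was -0.61 among the 4 libraries rich in Y-linked transcripts and -0.59 among the other 4, as differences of mean log2 CPM, each of which has a single library on 1 side (Pdgfra-Cre:LmnaF/F replicate 4 and WT replicate 3).

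Hmox1 and Nqo1 encode the classic inducible enzymes of the response. Heme oxygenase 1, which opens the heme ring and releases iron (chr8:75093621-75100589, plus strand), was at 27.9, 37.7, 14.4 and 23.8 CPM in WT and at 23.1, 17.6, 10.8 and 39.6 CPM in Pdgfra-Cre:LmnaF/F replicates 1 to 4. Both the highest and the lowest value belonged to Pdgfra-Cre:LmnaF/F libraries, the highest being replicate 4. The log2 fold change was -0.17 (SE 0.40, 95% interval -1.03 to 0.68, adjusted p = 0.923), and its sign turned on omission of WT replicate 2 (0.04) or Pdgfra-Cre:LmnaF/F replicate 3 (0.06). NAD(P)H quinone dehydrogenase 1, a reducer of quinones (chr8:107388225-107403206, minus strand), was scarcer, with 3.18, 9.56, 6.07 and 6.11 CPM in WT and 8.79, 13.3, 11.9 and 12.5 CPM in Pdgfra-Cre:LmnaF/F. Behind these lay 19 to 59 counts per WT library and 85 to 150 per Pdgfra-Cre:LmnaF/F library. WT replicate 2, the shallowest library, was the only WT library above any Pdgfra-Cre:LmnaF/F library. Nqo1 had a log2 fold change of 0.93 (SE 0.51, 95% interval -0.17 to 2.02, adjusted p = 0.52), and the estimate without WT replicate 2 was 1.18 (adjusted p = 0.574).

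Glutathione synthesis depends on the ligase made of GCLC and GCLM and on cystine entering through SLC7A11. Gclc, the catalytic subunit (chr9:77754535-77794485, plus strand), was at 28.2, 27.7, 33.4 and 39.9 CPM in WT and at 55.4, 23.6, 76.9 and 35.3 CPM in Pdgfra-Cre:LmnaF/F. The WT libraries were closely grouped. Of the Pdgfra-Cre:LmnaF/F libraries, replicates 1 and 3 lay above them, replicate 2 below them and replicate 4 within their range. Its log2 fold change of 0.56 (SE 0.33, adjusted p = 0.552) dropped to 0.23 at the lowest with 1 library left out. Gclm (chr3:122245557-122270732, plus strand), the regulatory subunit, was at 20.9, 15.6, 20.1 and 17.5 CPM in WT and at 41.5, 23.6, 21.2 and 20.2 CPM in Pdgfra-Cre:LmnaF/F. All but replicate 4 of the latter exceeded every WT library, replicate 1 by the widest margin, and the log2 fold change was 0.51 (SE 0.32, adjusted p = 0.584). The leave-one-out estimates for Gclm ranged from 0.21 to 0.62. Of its exon bases, 3.88% are shared with Gm6061 on the same strand and 4.71% lie opposite Gm17494.

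Slc7a11, the cystine and glutamate exchanger (chr3:49892526-50443614, minus strand), was the most variable tested gene of the set in WT, at 19.9, 2.01, 27.3 and 12.3 CPM. In Pdgfra-Cre:LmnaF/F it was at 14.2, 10.5, 8.17 and 1.92 CPM. WT replicate 2 held 4 counts and Pdgfra-Cre:LmnaF/F replicate 4 held 23, so the lowest level of each genotype was of similar size although these were the shallowest and the deepest library. A log2 fold change of -0.85 had an SE of 0.67 and a 95% interval of -2.27 to 0.57 (adjusted p = 0.691). Leave-one-out estimates lay between -1.19 and -0.44, and with the Y-linked covariate the estimate was -1.81 (adjusted p = 0.255). The range of CPM within each genotype was wider than the difference between the 2 means.

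Thioredoxin reductase and sulfiredoxin return oxidized thioredoxin and peroxiredoxins to use. Txnrd1, the cytosolic thioredoxin reductase (chr10:82833951-82897712, plus strand), was at 50.8, 58.9, 98.3 and 53.8 CPM in WT and at 65.5, 71.1, 95.7 and 75.5 CPM in Pdgfra-Cre:LmnaF/F. WT replicate 3 exceeded all other libraries, and the other WT libraries lay below all those of Pdgfra-Cre:LmnaF/F. The log2 fold change was 0.23 (SE 0.24, adjusted p = 0.794), and without that library it was the highest of the leave-one-out range, 0.11 to 0.50. Srxn1, which repairs overoxidized peroxiredoxins (chr2:152105516-152111376, plus strand), was at 48.7, 76.0, 56.6 and 59.7 CPM in WT and at 46.1, 68.0, 46.3 and 31.5 CPM in Pdgfra-Cre:LmnaF/F. All Pdgfra-Cre:LmnaF/F libraries except replicate 2 were below the WT libraries. Srxn1 had a log2 fold change of -0.32 (SE 0.26, adjusted p = 0.7), and leave-one-out estimates ran from -0.54, without replicate 2 of Pdgfra-Cre:LmnaF/F, to -0.16, without its replicate 4.

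Mt1 had the highest fold change estimate among the tested genes of the set. The gene (chr8:94179082-94180327, plus strand) was at 26.7, 66.4, 44.9 and 36.6 CPM in WT, from 286, 132, 281 and 353 counts. In Pdgfra-Cre:LmnaF/F it was at 62.9, 57.9, 140 and 328 CPM, from 608, 555, 1217 and 3939 counts. Replicates 3 and 4 were above every WT library, while replicates 1 and 2 lay just below WT replicate 2. The means were 43.6 ± 16.9 and 147 ± 126 CPM (SD, n = 4), a fold change of 3.43 (95% interval 1.71 to 6.91) or 1.78 on the log2 scale (SE 0.47). This estimate had an unadjusted edgeR p of 0.00194 and an adjusted p of 0.134, so Mt1 did not pass the threshold. Only 3.25% of the tested genes had a larger absolute log2 fold change, and 1.43% had a smaller p.

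The size of the Mt1 estimate moved with a single library, and its adjusted p moved with the genes fitted and the covariate. Without Pdgfra-Cre:LmnaF/F replicate 4 the log2 fold change was 1.02 (SE 0.34, adjusted p = 0.245), and omission of the other libraries in turn gave 1.60 to 2.04 with adjusted p between 0.0767 and 0.308. When no genes were removed for low counts, Mt1 passed at the same size of effect (log2 fold change 1.76, adjusted p = 0.000694; 1.45% of 18957 genes called). It also passed with the abundance of Y-linked transcripts as a covariate (1.88, SE 0.41, adjusted p = 0.0453; 0.913% called), an alternative added after the data had been seen. Across the other 8 settings its adjusted p ranged from 0.086 to 0.217. Within the libraries rich in Y-linked transcripts, Pdgfra-Cre:LmnaF/F replicate 4 exceeded the mean of 3 WT libraries by 3.02 in log2 CPM. Among the other 4 libraries the mean of Pdgfra-Cre:LmnaF/F exceeded the single WT library by 0.83.

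Other signals moved beside Mt1. Replicate 4, with the highest Mt1 level, was also the library with 3170 CPM of cardiomyocyte and 450 CPM of macrophage or leukocyte markers, and the part of these cells in the Mt1 level was not tested. In Pdgfra-Cre:LmnaF/F replicate 3 Mt1 was at 140 CPM with cardiomyocyte and macrophage sums (361 and 111 CPM) inside the WT ranges. A list of 22 immediate-early and stress genes known to respond to enzymatic dissociation had a mean log2 CPM of 6.53 to 7.22 in WT and 7.77 to 8.25 in Pdgfra-Cre:LmnaF/F, without overlap. Its relation to Mt1 was not tested. Within Pdgfra-Cre:LmnaF/F this mean was lowest in replicate 4 (7.77), in which Mt1 was highest, and highest in replicate 3 (8.25). Of 8 glucocorticoid-responsive genes, 6 were higher in replicates 3 and 4 than in replicates 1 and 2. In 4 of the 6 (Sgk1, Per1, Errfi1 and Klf9) replicates 3 and 4 lay above every WT library. The order is that of Mt1 and was looked for after the values had been seen. The share of all tested genes with the same order was not computed, so these counts do not show that it is unusual. Nr3c1, the glucocorticoid receptor, and Zbtb16 did not show this order. Sgk1, a kinase gene induced by glucocorticoids, was at 113, 111, 394 and 502 CPM in Pdgfra-Cre:LmnaF/F replicates 1 to 4 and at 111, 140, 87.2 and 120 CPM in WT. Per1, a clock gene, was at 107, 82.0, 269 and 381 CPM in Pdgfra-Cre:LmnaF/F and at 108, 170, 50.0 and 106 CPM in WT. In both genes replicates 1 and 2 lay within the WT range, as for Mt1, and the relation to Mt1 was not tested.

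**Figure D3:**
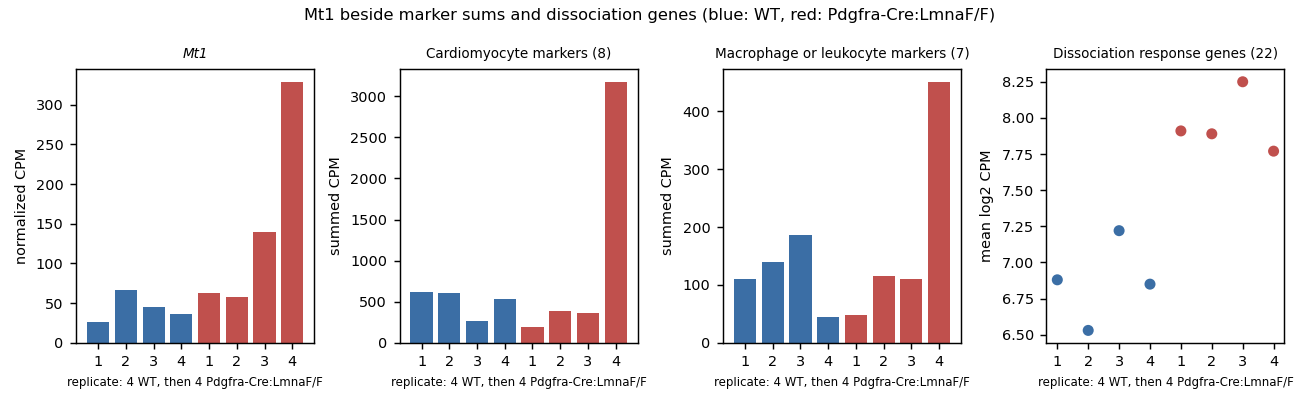
Per library, from left, normalized CPM of Mt1, summed CPM of 8 cardiomyocyte and of 7 macrophage or leukocyte markers (bars from 0), and mean log2 CPM of 22 dissociation response genes (points); WT replicates 1 to 4 are blue and Pdgfra-Cre:LmnaF/F replicates 1 to 4 red. Replicate 4 of Pdgfra-Cre:LmnaF/F is highest in the 3 bar panels, and in the last panel the genotypes separate, at up to 7.22 in WT and from 7.77 upward in Pdgfra-Cre:LmnaF/F.

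Mt2, whose protein binds metal in the same way as that of Mt1, had almost no counts in WT. It lies upstream of Mt1 on the same strand (chr8:94172664-94173568), with 5513 bases between the end of Mt2 and the start of Mt1. Counts were 1, 0, 0 and 0 in WT replicates 1 to 4 and 11, 32, 0 and 47 in Pdgfra-Cre:LmnaF/F. In CPM, WT replicate 1 was at 0.0934, and the Pdgfra-Cre:LmnaF/F libraries were at 1.14, 3.34, 0 and 3.92. Replicate 3, which had the second-highest Mt1 level, held no Mt2 count. The gene did not reach the minimum needed for the test. The 90 pooled counts of Pdgfra-Cre:LmnaF/F against 1 of WT gave a ratio of pooled CPM of 64.5 (exact 95% interval 11.3 to 2570). This interval covers counting error only and neither the spread between libraries nor duplicate reads, and it compares pooled libraries rather than genotypes.

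The share of Mt2 in the summed counts of Mt1 and Mt2 was 0.095% in WT and 1.4% in Pdgfra-Cre:LmnaF/F. In the GENCODE M21 annotation, 73.5% of the 588 exon bases of Mt2 lie under Gm45774, a gene on the opposite strand that was not among the genes listed in the counts. Although the libraries kept strand, the strand setting used in counting is not given in the sources used here. If strand was ignored, reads over the shared bases cannot be assigned to Mt2 or Gm45774 and may have been left uncounted. Low counts of Mt2 therefore need not mean a low transcript level. The absolute level of Mt2 is therefore uncertain. No exon of Mt1 is overlapped by another gene.

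**Figure D4:**
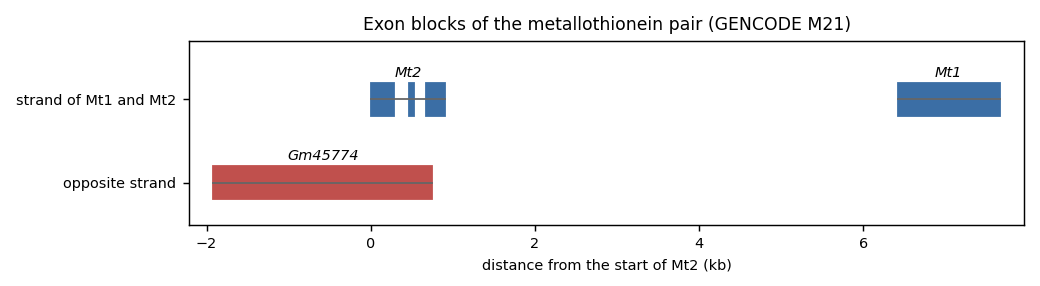
Merged exon blocks of Mt2, Mt1 and Gm45774 in GENCODE M21, drawn to scale against the distance in kb from the start of Mt2, with the upper row showing the strand of Mt1 and Mt2 and the lower row the opposite strand. Gm45774 covers the first exon blocks of Mt2 and part of the last (73.5% of its exon bases in all) and does not reach Mt1.

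Levels were compared between genes as CPM per kilobase of merged exons. In WT the order was Nfe2l2 (47.3 ± 9.54), Mt1 (35.0 ± 13.6), Srxn1 (21.4 ± 4.07), Hmox1 (14.8 ± 5.53), Txnrd1 (9.24 ± 3.12), Gclc (8.57 ± 1.51), Nqo1 (4.01 ± 1.68), Gclm (2.95 ± 0.389), Slc7a11 (1.11 ± 0.777) and Mt2 (0.0397 ± 0.0794; mean ± SD, n = 4, CPM per kilobase). The place of Mt2 is uncertain because of its overlap with Gm45774. Among tested neighbours in this order, WT ranges were separate only between Gclc and Nqo1 and between Gclm and Slc7a11. In Pdgfra-Cre:LmnaF/F the highest level was that of Mt1 (118 ± 101), ahead of Nfe2l2 (35.7 ± 5.85), and their ranges were separate (46.4 to 263 and 28.4 to 41.3). The merged exons of Mt1 form a single block of 1246 bases that takes in its introns, which lowers its level per kilobase relative to the spliced transcript.

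Relations between genes across the 8 libraries were computed for 3 pairs chosen for a shared role. Gclc and Gclm, which form 1 enzyme, had a Pearson r of 0.385 (exact permutation p = 0.339, adjusted over 3 pairs 0.508) and a Spearman rho of 0.238 (exact permutation p = 0.582, adjusted 0.793). Without the 2 libraries farthest from the median, r became -0.389. Mt1 and Mt2 had an r of 0.498 (exact permutation p = 0.204, adjusted 0.508) and a rho of 0.254 (exact permutation p = 0.54, adjusted 0.793), and r was 0.00368 after removal of the genotype means, by which r became 0.188 for Gclc with Gclm and 0.39 for Hmox1 with Mt1. For Hmox1 and Mt1, r was 0.134 (exact permutation p = 0.764, adjusted 0.764) and rho 0.119 (exact permutation p = 0.793, adjusted 0.793). Without the 2 farthest libraries r was 0.438 for the metallothioneins and 0.0335 for Hmox1 with Mt1. Single libraries moved these values: r of Mt1 with Mt2 was 0.0425 without Pdgfra-Cre:LmnaF/F replicate 4, r of Gclc with Gclm was 0.0376 without Pdgfra-Cre:LmnaF/F replicate 1, and r of Hmox1 with Mt1 was -0.516 without Pdgfra-Cre:LmnaF/F replicate 4. No pair passed, and the data do not show that members of a pair varied together or that they did not.

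The wider pathway was read from 10 lists holding 133 further tested genes. Of these, 78 had estimates above 0 and 55 below, beside 51.8% above 0 over all genes. In the 8 lists other than the dissociation and glucocorticoid lists, 51 of 103 were above 0 and 52 below. The threshold was passed by 3 genes in edgeR (0.407% of all tested genes), all 3 higher in Pdgfra-Cre:LmnaF/F (0.169% of all tested genes) and all 3 in the dissociation list. Leaving out a library changed that count: it was 0 without WT replicate 1, WT replicate 4 or Pdgfra-Cre:LmnaF/F replicate 3, 1 without Pdgfra-Cre:LmnaF/F replicate 2, and 7 without WT replicate 3. The count was 6 without Pdgfra-Cre:LmnaF/F replicate 4. By DESeq2 it was 12, beside 2.32% of all tested genes, and these 12 were also all in the dissociation list.

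Regulators and cofactors of NRF2 comprised 14 genes, of which 0 passed and 2 had an unadjusted edgeR p under 0.05 (median log2 fold change -0.02). Maff, a small MAF partner, was at 0.98 (SE 0.31, adjusted p = 0.208), and Nfe2l1, a relative of NRF2 that governs proteasome genes, at -0.54 (adjusted p = 0.364). In the glutathione system 0 of 21 genes passed, 11 were above and 10 below 0, and the median was 0.02. Its lowest p-values belonged to the glutathione transferases Gstm2 (-0.71, adjusted p = 0.259) and Gsto1 (1.08, adjusted p = 0.37). None of 15 thioredoxin and peroxiredoxin genes passed (median 0.02). In 3 of them the genotypes did not overlap, beside 8.03% of all tested genes, and these differed in direction. Prdx4, the peroxiredoxin of the endoplasmic reticulum, was at 0.84 (adjusted p = 0.194), while the methionine sulfoxide reductase Msra was at -0.58 and the mitochondrial peroxiredoxin Prdx3 at -0.26. Sesn1, a target of p53, had an estimate of 1.12 (adjusted p = 0.365) with a single high library. It was at 362 CPM in Pdgfra-Cre:LmnaF/F replicate 4, which also had the highest cardiomyocyte and macrophage markers, and at 63.1 to 73.2 CPM in the other replicates of that genotype, against 56.9 to 69.9 CPM in WT.

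Enzymes that remove superoxide and peroxide (9 genes) had 7 estimates above 0 and a median of 0.23, and 0 passed. The extracellular dismutase Sod3 was at -0.67 (adjusted p = 0.391) and catalase, Cat, at -0.34 (adjusted p = 0.7). Among 8 genes of NADPH supply 6 were below 0, with a median of -0.33 and 0 passing. Idh2, the mitochondrial isocitrate dehydrogenase, was at 0.35 (adjusted p = 0.53), and G6pdx, which opens the pentose phosphate pathway, at -0.40 (adjusted p = 0.536). For 13 other detoxification targets the median was -0.06 and 0 passed, with the carbonyl reductase Cbr1 at -0.82 (adjusted p = 0.413) and the carboxylesterase Ces1d at -1.17 (adjusted p = 0.427).

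Heme and iron handling (13 genes, median 0.08, 0 passing) included the ferritin light chain Ftl1 at 0.55 (adjusted p = 0.329) and Ireb2, an iron-responsive regulator of translation, at 0.57 (adjusted p = 0.354). Metal response and zinc transport (10 genes, median -0.19, 0 passing) included the zinc exporter Slc30a4 at 0.68 (adjusted p = 0.219), without overlap between genotypes, and the zinc importer Slc39a14 at -0.46 (adjusted p = 0.54). Of 8 glucocorticoid-responsive genes 7 had estimates above 0 (median 0.82), and 0 passed. Sgk1 was at 1.29 (adjusted p = 0.209) and Per1 at 0.96 (adjusted p = 0.404), and in both the excess lay in Pdgfra-Cre:LmnaF/F replicates 3 and 4, as given above.

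Dissociation response genes were the list with the highest median, 1.32. Of its 22 genes 20 were above 0, 15 had an unadjusted edgeR p under 0.05 and 12 were higher without overlap between genotypes, beside 11.9% and 4.06% of all tested genes. Those that passed the edgeR threshold were Ier3, a stress-induced gene (1.88, adjusted p = 0.0221), Btg2, an antiproliferative target of p53 (2.08, adjusted p = 0.0315), and Nr4a1, an immediate-early nuclear receptor (1.92, adjusted p = 0.0471). Btg2, for example, was at 343, 110, 511 and 268 CPM in WT and at 1010, 1050, 1890 and 1260 CPM in Pdgfra-Cre:LmnaF/F. All Pdgfra-Cre:LmnaF/F libraries were above all WT libraries for this gene. Whether the difference arose in the heart or during isolation cannot be told apart, since every library was made after digestion.

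**Figure D5:**
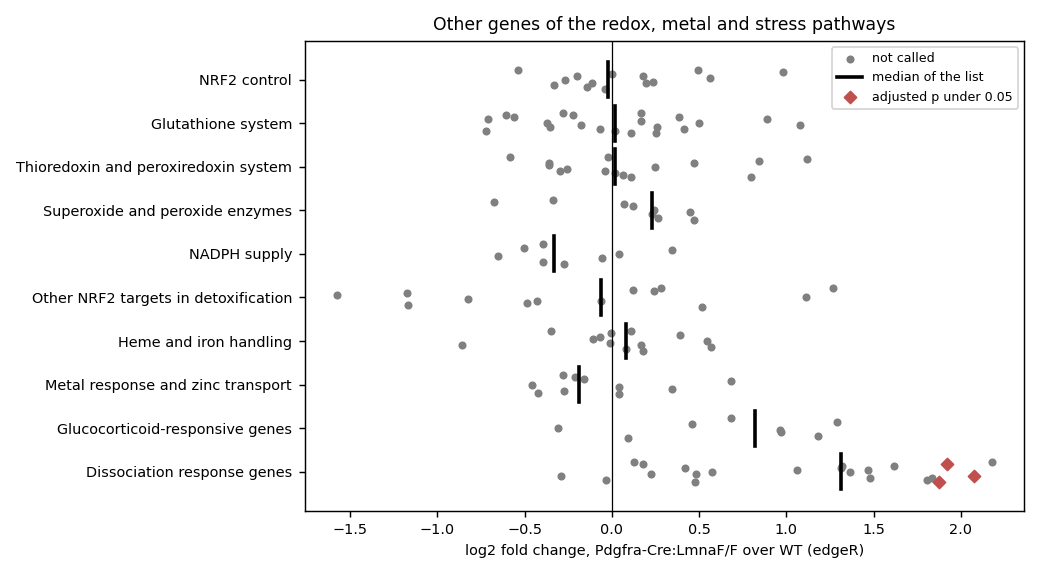
Log2 fold change (Pdgfra-Cre:LmnaF/F over WT, edgeR) of each of 133 tested genes in 10 lists, with the median of each list as a black bar and genes with an adjusted p under 0.05 as red diamonds. The 3 diamonds are Ier3, Btg2 and Nr4a1 in the dissociation list, and medians of the lists other than the glucocorticoid and dissociation lists lie between -0.33 and 0.23.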

How the data were processed

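The authors sorted the cells by FACS, extracted total RNA and sequenced strand-specific libraries as 150 bp paired-end reads, from RNA with an integrity number above 8. Their methods name alignment with HISAT2 to mm10, counting with featureCounts on a GENCODE annotation, and RUV correction before DESeq2, while the labels name FastQC and DESeq2. Versions, the counting strand are not given in the sources used here. The values used are the raw counts per gene symbol deposited by the authors for each of the 8 libraries, and 18957 genes were listed, each with a total of at least 4 counts.

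Groups and replicate numbers came from the labels, which name 4 samples per genotype. Totals ran from 2080555 to 12502949, and the shallow WT replicate 2 gives the least precise values. Replicates of a genotype differed by more than counting noise (chi-square per degree of freedom 14.5 to 88.9). Genes were filtered with filterByExpr, scaled by TMM and tested with edgeR 4.0.16 (quasi-likelihood, R 4.3.3) across all 13036 genes left, with Benjamini-Hochberg adjustment and a threshold of 0.05. The SE was the absolute log2 fold change divided by the square root of F. CPM values are normalized by TMM, and log2 CPM uses a prior count of 2. Exact two-sided permutation tests (scipy 1.17.1) served the correlations. Alternatives were other scaling factors, other filters, DESeq2 1.42.0, limma 3.58.1 (voom), a RUV factor, a replicate block, omission of each library and, added after the data had been seen, a Y-linked covariate. Scripts were tested on simulated data. With simulated counts for the tested genes, edgeR recovered 13.3% of 2-fold, 73.2% of 4-fold and 87.6% of 8-fold changes. A gene that did not pass was therefore not shown to be unchanged.

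Gene positions and exon lengths came from GENCODE M21 and promoters from RefSeq. The members and gene lists were chosen with earlier results of these data known. Genes named besides the members were, in each list, those that passed or the lowest p-values up to 2 genes, and for 3 members the closest patterns across libraries. Btg2 as the example, Msra, Prdx3, Errfi1, Klf9, Nr3c1, Zbtb16 and the values of Sgk1 and Per1 beside Mt1 were chosen after the values had been seen. Chac1 and Mt4 of the lists were not among the genes listed. The planned comparison of the MT1 and MT2 proteins was not made.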

Additional observations from a re-analysis of the deposited data

Results flagged for a closer look

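In 3 of 22 groups of 4 libraries (11 genes in 2 genotypes), 1 library lay apart from the rest by Dixon's test, which flags about 1 group in 20 by chance. Gclm was at 41.5 CPM in Pdgfra-Cre:LmnaF/F replicate 1, with the next library of that genotype at 23.6 CPM, a gap of 0.84 of the whole range. Txnrd1 was at 98.3 CPM in WT replicate 3, with the next at 58.9 CPM (gap 0.83 of the range). Mt2 was at 0.0934 CPM in WT replicate 1, which is 1 count, with the other WT libraries at 0. A single count beside libraries at 0 is always flagged, so the chance rate above does not apply to this group.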

How the results depend on the processing

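The number of genes called (53) was 274 without a filter, 303 by DESeq2, 126 by limma-voom, 81 by edgeR and 455 by DESeq2 with a RUV factor, 119 with the Y-linked covariate, and 13 to 76 with 1 library left out. The number of the set called (0) was 1, namely Mt1, without a filter (1.76) and with the Y-linked covariate (1.88). Genes called in the pathway lists (3) numbered 13 without a filter, 5 with at least 10 counts in every library, 12 by DESeq2, 10 by limma-voom, 8 by edgeR and 15 by DESeq2 with a RUV factor, and 0 to 7 with 1 library left out. Hmox1 turned sign without WT replicate 2 (0.04), without Pdgfra-Cre:LmnaF/F replicate 3 (0.06) and with the Y-linked covariate (0.23), and over the leave-one-out fits it ranged from -0.58 to 0.06. The correlation of Hmox1 with Mt1 ranged from -0.516, without Pdgfra-Cre:LmnaF/F replicate 4, to 0.518, without replicate 3 of that genotype. Some differences in marker sums, which were not tested, also turned sign with 1 library left out. The cardiomyocyte difference (0.17 in log2) ranged from -0.68 to 0.66 and that of macrophages or leukocytes (0.27) from -0.32 to 0.74. The endothelial difference (-0.2) ranged from -0.46 to 0.07, the Schwann difference (-0.13) from -0.38 to 0.27 and the fibroblast difference (-0.02) from -0.05 to 0.02. The cause of these shifts was not tested.

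No pairing of libraries by replicate number was detected: deviations of same-numbered libraries correlated between -0.0298 and 0.0396. These values cannot exclude that same-numbered samples were related or handled together. With the replicate block 36 genes were called, 0 of the set and 6 of the pathway lists, and Mt1 was at 1.47 (adjusted p = 0.217).

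Counts were low for Slc7a11 (4 in WT replicate 2, so not tested under the filter of 10 counts), for Nqo1 (19 in that library) and for Mt2 (0 in 4 libraries of both genotypes).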

Other observations

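Closest patterns across the 8 libraries, by Pearson r of log2 CPM with every other tested gene, are given as a description without a test, since the libraries share genotype, depth and cell mixture. For Mt1 they were Slc10a6 (r = 0.976), a carrier of sulfated steroids, Tmem176b (0.975) and Map3k6 (0.974), with log2 fold changes of 1.64, 1.35 and 1.18. For Mt2 they were Arrdc1 (0.946), Mtx2 (0.943) and the interferon-induced Ifitm1 (0.943). For Nfe2l2 they were Ruvbl2 (0.976), Eogt (0.965) and Slc26a9 (0.963), with log2 fold changes of -0.39, -0.75 and -1.68.

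Among listed coding genes with at least 70% of their exon bases under an exon of the opposite strand, as Mt2 has, 14 of 39 (35.9%) had enough counts to be tested, compared with 9335 of 14359 (65.0%) of those with under 1% so covered.

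Slc7a11 differed from WT by -1.95 in mean log2 CPM among the libraries rich in Y-linked transcripts and by -1.33 among the others, and with the Y-linked covariate its log2 fold change was -1.81 (SE 0.70, edgeR adjusted p = 0.255). Srxn1 differed by -0.94 and -0.11, and Txnrd1 by 0.47 and -0.36. Each of these within-split differences rests on 1 library of one genotype, and the difference between the splits was not tested.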
